A study of Mus musculus with 12 samples.

Results

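Expression of 9 genes of the Hedgehog pathway was followed in hair follicle stem cells sorted from the back skin of mice with and without the transcription factor Foxc1. The genes were taken by symbol: the ligand Shh, the receptor Ptch1, the ligand-binding inhibitor Hhip, the co-receptors Boc and Cdon, the signal transducer Smo and the transcription factors Gli1, Gli2 and Gli3. They are 9 of 23735 gene models, and each was found on a single row of every table. The 12 mRNA sequencing libraries fall into 7 groups.

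In the growth phase (anagen), at postnatal day 30, 2 heterozygous libraries (Het) were the controls of 2 inducible knockout libraries (iKO). Both groups came from male mice of a Black Swiss and C57BL/6 mix that carried Sox9CreER and had received tamoxifen, which activates the recombinase in Sox9-expressing cells and also switches on a YFP reporter. In the resting phase of the second hair cycle (second telogen), 2 wild-type libraries (WT) were the controls of 2 conditional knockout libraries (cKO) made with K14Cre, a driver active in basal keratinocytes. Those mice were Black Swiss, with 1 male at day 42 and 1 female at day 46 in each group. A further 2 iKO libraries, from male mice of the mixed strain with Sox9CreER and tamoxifen, were in second telogen at day 60. The last 2 groups have 1 library each: cells in first telogen at about day 23 and cells in anagen substage II at about day 26, both from female Agouti mice heterozygous for Shh (Shh-Het). Their titles call them wild type, and the labels do not describe the altered allele. The heterozygous controls may have a lower Foxc1 dose than wild-type mice, since their label calls them FOXC1-Sox9CreER-heterozygous.

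Values are FPKM (fragments scaled by transcript length and by the mapped total of the library), deposited as 1 pooled value per group, so no value per library can be shown, and the sequencing depth is unknown. A gene was called where the authors' own test gave a q below 0.05. In the knockouts Foxc1 fell from 23.9 to 1.40 FPKM in anagen (17.0-fold), from 26.5 to 1.59 FPKM in second telogen cKO cells (16.6-fold) and from 27.5 to 3.17 FPKM in second telogen iKO cells (8.66-fold against WT). The bulge marker Cd34 was present in every group, at 129 to 883 FPKM, but its level was not constant. Of 9 tested bulge genes, 3 (Cd34, Krt24 and Nfatc1) were called lower in anagen iKO than in Het cells and 0 higher. In second telogen 0 of 9 were called in cKO against WT cells, and 1, Krt24, was called higher in iKO against WT cells. The part of these genes in the Hedgehog values was not tested. The keratin genes Krt5 and Krt15 are listed at 0 in several groups because the authors' program skipped loci with too many fragments, so they give no check of the cell type. The 2 Shh-Het libraries stood apart in their fibroblast markers: the summed level of 11 such genes was 2207 FPKM in first telogen and 1051 FPKM in anagen II, against 13.9 to 107 FPKM in the other 5 groups. The first telogen library also had the highest immune and endothelial sums. They were 300 and 48.3 FPKM, against at most 113 and 7.72 FPKM in any other group.

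Hedgehog signalling is switched on when a secreted ligand binds Ptch1, which otherwise keeps Smo inactive at the primary cilium. Active Smo lets Gli2 and Gli3 act as activators rather than repressors, and Gli1, Ptch1 and Hhip are themselves transcribed in response, so their RNA is widely read as a measure of pathway activity. In hair follicles, Shh made by transit-amplifying matrix cells drives growth during anagen and reaches both the epithelium and the dermal papilla.

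The ligand was scarce in every group and close to 0 in second telogen. Shh (mm9, chr5:28783380-29045749) stood at 1.37 FPKM in anagen Het, 1.86 in anagen iKO, 0.667 in first telogen Shh-Het and 1.69 in anagen II Shh-Het cells. In second telogen it was listed at 0 in WT, 0.00628 in cKO and 0.0444 in iKO cells. All 3 second telogen groups thus lay below all 4 others. The row of Shh spans 262370 bases, a span it shares with the row of 9530036O11Rik, and the labels do not say whether reads were counted by strand, so reads of both cannot be told apart. The row of 9530036O11Rik itself stood between 0.0174 and 0.400 FPKM.

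The receptor Ptch1 (mm9, chr13:63612841-63666828) was highest in the Shh-Het cells, at 18.6 FPKM in first telogen and 20.3 in anagen II. In the Foxc1 series it stood at 8.84 FPKM in second telogen iKO, 7.34 in cKO, 6.35 in WT, 4.94 in anagen Het and 4.07 in anagen iKO cells. No 2 neighbours in that order of 5 groups differed at a deposited q below 0.05 (q between 0.242 and 0.536 in the authors' deposited table), while the 2 ends did. Hhip (mm9, chr8:82489750-82581907), which binds the ligand at the cell surface and is induced by the pathway, was low everywhere. It stood at 1.44 FPKM in second telogen WT, 1.30 in anagen II Shh-Het, 0.890 in second telogen iKO, 0.765 in first telogen Shh-Het, 0.700 in anagen Het, 0.393 in anagen iKO and 0.299 in second telogen cKO cells. The order of Hhip was therefore not that of Ptch1: second telogen cKO cells were the lowest of all groups for Hhip and not for Ptch1.

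The co-receptors Boc and Cdon, related surface proteins that bind the ligand and help present it to Ptch1, had different orders. Boc (mm9, chr16:44485158-44558983) was the most abundant member in every second telogen group, at 102.7 FPKM in WT, 89.0 in cKO and 79.1 in iKO cells. It was 38.1 FPKM in anagen Het, 39.1 in anagen iKO, 67.6 in first telogen Shh-Het and 23.9 in anagen II Shh-Het cells. All resting groups thus lay above all growing groups. Cdon (mm9, chr9:35259661-35315237) stood near 36 FPKM in second telogen WT (36.3), first telogen Shh-Het (36.7) and anagen Het cells (35.3). It was lower in each knockout group, at 24.8 FPKM in second telogen iKO, 23.4 in cKO and 15.3 in anagen iKO cells, and lowest in anagen II Shh-Het cells at 7.96 FPKM.

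Smo (mm9, chr6:29685497-29711366) and Gli3 (mm9, chr13:15555556-15821858) varied least, with a highest over lowest ratio of 1.70 and 1.60 across the 7 groups, against 3.34 to 6.41 for Ptch1, Hhip, Boc, Cdon, Gli1 and Gli2. Smo ranged from 38.5 FPKM in first telogen to 65.4 in anagen II Shh-Het cells, with 41.1 to 57.7 in the other groups. Gli3, which acts mainly as a repressor when the ligand is absent, ranged from 5.95 FPKM in first telogen Shh-Het to 9.54 in second telogen iKO cells. Over the 6 replicated comparisons described here, neither was called in any authors' deposited comparison, and at an unadjusted p below 0.05 the count was 1 for Smo and 0 for Gli3.

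Gli1 (mm9, chr10:126759020-126778635), an activator that is both an effector and a target of the pathway, had the widest range of the 8 genes above 0 in every group, 6.41-fold. It stood at 55.7 FPKM in anagen II Shh-Het, 37.8 in first telogen Shh-Het, 27.2 in second telogen cKO, 25.5 in second telogen iKO, 16.7 in second telogen WT, 13.5 in anagen Het and 8.69 in anagen iKO cells. Among the 5 replicated groups, neighbouring levels of second telogen cKO and iKO cells, and of WT and anagen Het cells, did not differ at q below 0.05, while the steps from iKO to WT and from anagen Het to anagen iKO did. Gli2 (mm9, chr1:120730638-120950196), the main activator in skin, fell into plain levels. It was 10.8 to 11.5 FPKM in the 3 second telogen groups, 5.41 and 5.24 FPKM in anagen Het and iKO cells, and 17.5 and 11.7 FPKM in first telogen and anagen II Shh-Het cells.

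**Figure D1:**
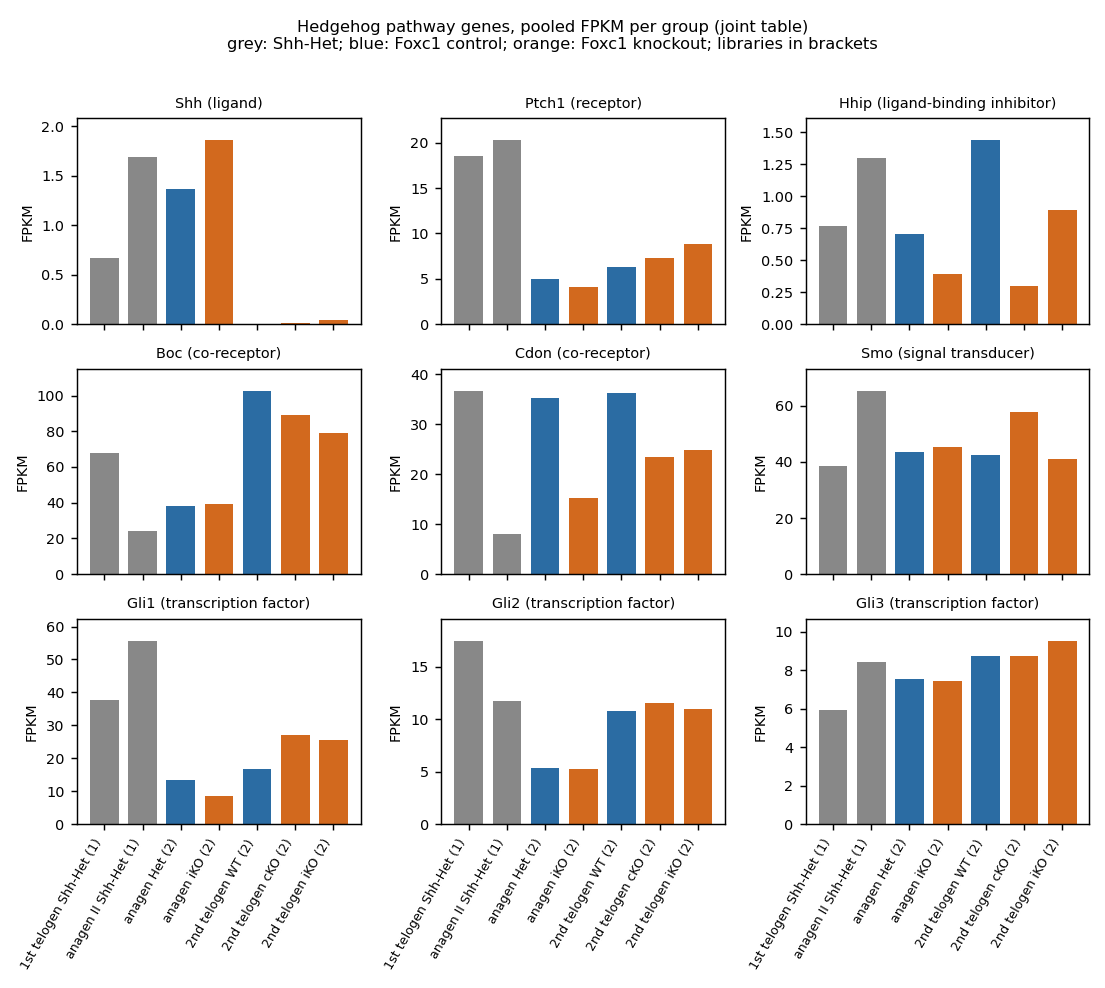
Bars give the pooled FPKM of each of the 9 Hedgehog genes in the 7 groups, with no error bars because only pooled values were used, and the number of libraries is in brackets. Grey bars are Shh-Het, blue bars Foxc1 controls and orange bars Foxc1 knockouts. Cdon is lower in each orange bar than in its blue control, Gli1 is lower in orange in anagen and higher in orange in second telogen, and Ptch1 and Gli1 are highest in grey.

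Sequences upstream of the start are shown for the receptor, the inhibitor and the co-receptor whose levels moved most among the surface proteins. They come from RefSeq (build GRCm38.p6, which is not the build of the tables), in which 6 of the 9 genes were matched: Gli2, Smo, Hhip, Cdon, Gli3 and Ptch1. Each is given 5′ to 3′ on the strand of the gene, with every CG in capitals.
Ptch1, chr13:63565736-63565985, minus strand: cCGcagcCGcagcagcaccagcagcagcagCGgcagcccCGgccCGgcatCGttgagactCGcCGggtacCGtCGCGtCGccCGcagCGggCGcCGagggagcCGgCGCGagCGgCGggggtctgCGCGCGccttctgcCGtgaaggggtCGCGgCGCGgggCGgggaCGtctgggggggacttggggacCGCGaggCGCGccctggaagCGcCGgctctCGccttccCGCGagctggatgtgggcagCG
Hhip, chr8:80058009-80058258, minus strand: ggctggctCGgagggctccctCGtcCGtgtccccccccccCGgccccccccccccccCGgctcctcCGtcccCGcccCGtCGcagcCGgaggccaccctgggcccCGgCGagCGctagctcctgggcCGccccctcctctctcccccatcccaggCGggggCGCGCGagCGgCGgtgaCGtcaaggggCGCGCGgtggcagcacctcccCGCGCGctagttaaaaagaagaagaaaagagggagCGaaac
Cdon, chr9:35451826-35452044, plus strand: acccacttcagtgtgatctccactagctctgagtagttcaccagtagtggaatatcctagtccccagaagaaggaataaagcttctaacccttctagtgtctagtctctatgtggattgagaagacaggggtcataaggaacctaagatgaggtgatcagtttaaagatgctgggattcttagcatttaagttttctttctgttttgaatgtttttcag
The windows of Ptch1 and Hhip hold 41 and 28 CG pairs at a GC content of 78.4% and 76%, against a median of 6 pairs and 52.4% over 32851 promoter windows of 250 bases. The Cdon window holds 0 CG pairs at 40.6% GC. It has only 219 bases and ends at 35452044, short of the listed start at 35452076, so it is not directly comparable with those windows. The start in the table lies 30948 bases downstream of the farthest annotated start of Cdon, so this window is inside longer transcripts of the gene. For Ptch1 the distance is 7863 bases. The letters GACCACCCA, a Gli binding sequence, were searched on both strands from 250 bases before to 50 bases after the start. They occurred in 83 of 32851 promoters (0.253%) and in 0 of the 6 matched members. The forkhead core GTAAACA occurred in 1199 (3.65%) and also in 0 of 6, which says only that these letters are not in these windows.

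Loss of Foxc1 in anagen went with less Cdon and less Gli1. In iKO against Het cells, 2 of the 9 genes were called and both were lower, beside 10.3% of all genes tested (1408 of 13716). Cdon fell from 37.4 to 16.2 FPKM, a log2 change of -1.21 with a standard error of 0.25 (2.31-fold, q = 0.00106 in the authors' deposited table). Gli1 fell from 14.3 to 9.21 FPKM, a log2 change of -0.63 with a standard error of 0.28 (1.55-fold, q = 0.0159 in the authors' deposited table). Of these, Cdon acts at the cell surface and Gli1 at the transcriptional end of the pathway.

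The other 7 were not called in that comparison. Hhip stood at 0.742 FPKM in Het and 0.416 in iKO cells, a log2 difference of -0.83 with a standard error of 0.41 (q = 0.0632 in the authors' deposited table). In the joint table of all 7 groups the same libraries gave q = 0.0475 for Hhip, so there 3 of 9 were called, beside 11% of all genes. Shh stood at 1.45 FPKM in Het and 1.97 in iKO cells (q = 0.524 in the authors' deposited table). Ptch1 was 5.23 and 4.31 FPKM (q = 0.526 in the same table), so of the 3 genes used as readouts of the pathway only Gli1 passed there. Boc was 40.4 and 41.4, Smo 46.2 and 48.1, Gli2 5.73 and 5.55, and Gli3 8.004 and 7.89 FPKM in Het and iKO cells, ratios of 1.01 to 1.04. The median log2 ratio of the 9 genes, with 1 FPKM added to each value, was -0.04, against -0.02 over all genes tested.

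In second telogen, cells without Foxc1 had more Gli1 and less Hhip. Of the 8 genes tested in cKO against WT cells, 2 were called, beside 6.62% of all genes tested (897 of 13551). Shh, at 0 and 0.00605 FPKM, was not tested by the authors. Gli1 rose from 16.1 to 26.1 FPKM, a log2 change of 0.70 with a standard error of 0.34 (1.62-fold, q = 0.0436 in the authors' deposited table). Hhip fell from 1.38 to 0.287 FPKM, a log2 change of -2.26 with a standard error of 0.52 (4.81-fold, q = 0.00159 in the authors' deposited table). The 2 targets of the pathway thus moved in opposite directions in the same cells, and the third target, Ptch1, at 6.11 and 7.04 FPKM, was not called (q = 0.881 in the authors' deposited table).

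Cdon stood at 35.0 FPKM in WT and 22.5 in cKO cells, a log2 difference of -0.64 with a standard error of 0.33 (q = 0.113 in the authors' deposited table). In the joint table the same libraries gave q = 0.0103 for Cdon, so that 3 of 8 genes were called there, beside 12.2% of all genes. Smo stood at 40.8 FPKM in WT and 55.4 in cKO cells (q = 0.420 in the authors' deposited table). Boc was 98.8 and 85.5, Gli2 10.4 and 11.1, and Gli3 8.40 and 8.43 FPKM in WT and cKO cells, with none called. The median log2 ratio was 0.01, against 0.00 over all genes tested.

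**Figure D2:**
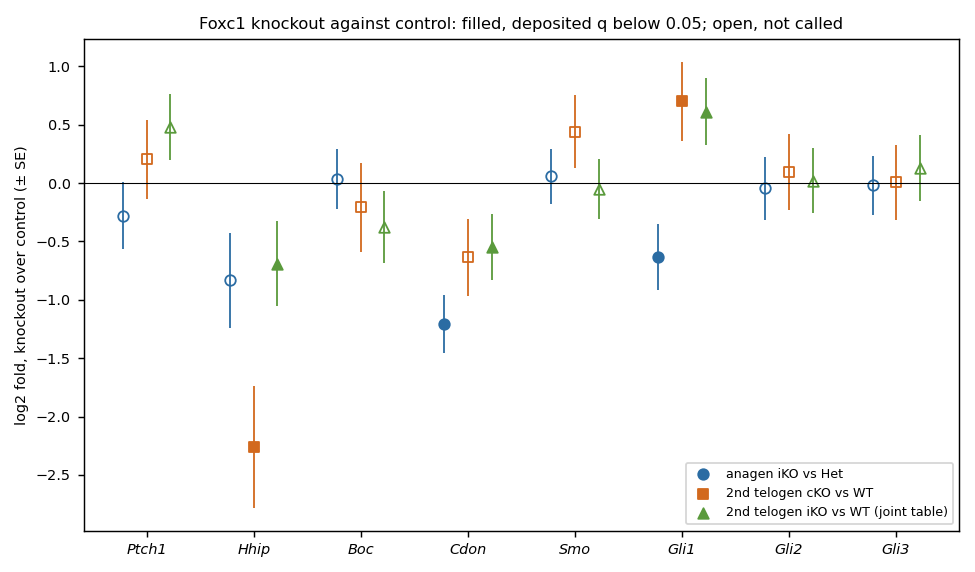
Points give the deposited log2 fold of knockout over control for 8 Hedgehog genes, with bars of 1 standard error, in anagen iKO against Het (circles), second telogen cKO against WT (squares) and second telogen iKO against WT from the joint table (triangles). Filled points were called at a deposited q below 0.05. Gli1 lies below 0 in anagen and above 0 in both telogen comparisons, Hhip and Cdon lie below 0 in all 3, and Gli2 and Gli3 lie near 0.

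Gli1 was called lower in anagen and higher in second telogen, so the difference of both knockout effects was tested for each gene from the deposited folds and their standard errors. For Gli1 the telogen effect exceeded the anagen effect by 1.33 on the log2 scale with a standard error of 0.44 (two-sided z test, unadjusted p = 0.00256, Benjamini-Hochberg adjusted p = 0.171 over 13033 genes; no exact test could be made without values per library). Hhip differed by -1.43 with a standard error of 0.66 (adjusted p = 0.857 in the same z test, again not an exact test). Of 8 Hedgehog genes, 0 passed after adjustment and 2, Gli1 and Hhip, had an unadjusted p below 0.05, beside 0.99% of all genes passing (129 of 13033). A difference between the stages was therefore not shown for any of the 8. Driver, tamoxifen, strain, age and sex also differ between both comparisons.

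The iKO cells of second telogen offered another knockout against the same WT libraries, in the joint table. There 3 of 8 tested genes were called, beside 12.9% of all genes (1769 of 13714). Gli1 rose from 16.7 to 25.5 FPKM (log2 change 0.61, standard error 0.29, q = 0.0133 in the authors' deposited table). Hhip fell from 1.44 to 0.890 FPKM (log2 change -0.69, standard error 0.37, q = 0.0363 in the same table). Cdon fell from 36.3 to 24.8 FPKM (log2 change -0.55, standard error 0.28, q = 0.0332 in the same table). The direction of each was that of the cKO cells, but both comparisons share the WT libraries. Strain, age, sex, driver and tamoxifen differ from WT together with the genotype and cannot be told apart from it. Ptch1, at 6.35 FPKM in WT and 8.84 in iKO cells, was not called (q = 0.0883).

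Set directly against each other, both second telogen knockouts differed in Hhip alone among the 8 tested genes. With 14.9% of all genes called (2041 of 13711), 1 of 8 was near the background. Hhip was 0.299 FPKM in cKO and 0.890 in iKO cells, a log2 difference of 1.57 with a standard error of 0.46 (2.98-fold, q = 0.000444 in the authors' deposited table). Residual Foxc1 was 1.66 FPKM in cKO and 3.17 in iKO cells (q = 0.00980 in the same table). Smo was 57.7 FPKM in cKO and 41.1 in iKO cells and was not called (q = 0.0605 in the same table). Gli1 was 27.2 and 25.5 FPKM, a log2 difference of -0.09 with a standard error of 0.28. Strain, age, sex, driver and tamoxifen also differ between both knockouts and cannot be told apart from residual Foxc1. In iKO against cKO cells, 4 of 6 tested immune genes were called higher and 5 of 10 cell cycle genes lower. Both tested dermal papilla genes, Crabp1 and Rspo3, were called higher. The part of these lists in the Hedgehog values was not tested.

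In iKO cells more of these genes were called between stages than in any knockout comparison, and so were more genes in all. Between anagen and second telogen iKO cells, 7 of 9 were called, beside 33.2% of all genes (4572 of 13787), and 6 of them were higher in the resting cells. Gli1 rose from 8.69 to 25.5 FPKM (2.94-fold), Ptch1 from 4.07 to 8.84 FPKM (2.17-fold) and Gli2 from 5.24 to 10.9 FPKM (2.09-fold), each at q = 0.000444 in the authors' deposited table. Shh, the ligand, fell from 1.86 to 0.0444 FPKM (41.8-fold, q = 0.0254 in the same table). Boc rose from 39.1 to 79.1 FPKM (2.02-fold), Hhip from 0.393 to 0.890 FPKM (2.26-fold) and Cdon from 15.3 to 24.8 FPKM (1.62-fold). Smo and Gli3 were not called. The median log2 ratio of the 9 genes was 0.67, against 0.01 over all genes tested. The groups also differ in age (day 30 and day 60) and in residual Foxc1, at 1.32 FPKM in anagen and 3.17 in second telogen iKO cells (q = 0.00156 in the authors' deposited table). In the same comparison 10 of 10 cell cycle genes were called lower in telogen. Of 14 matrix, shaft and root sheath genes, 9 were called lower and 1, Gata3, higher. Of 7 immune genes, 5 were called higher and 1, Lyz2, lower. Of 10 tested fibroblast genes 6 were called lower and 0 higher, and 3 of 3 tested endothelial genes were lower. Of 4 tested dermal papilla genes, 2 were called higher and 1 lower. Of 10 tested bulge genes, 3 (Krt24, Cd34 and Nfatc1) were called higher and 0 lower. The part of these lists in the Hedgehog values was not tested.

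Between the controls of both stages, 3 of 9 genes were called, all lower in anagen, beside 25.4% of all genes (3539 of 13932), so the share was near the background. Boc was 102.7 FPKM in second telogen WT and 38.1 in anagen Het cells (2.69-fold lower), Gli2 10.8 and 5.41 FPKM (1.99-fold lower), and Hhip 1.44 and 0.700 FPKM (2.05-fold lower, q = 0.00223 in the authors' deposited table). Gli1, at 16.7 and 13.5 FPKM, and Ptch1, at 6.35 and 4.94 FPKM, were not called (q = 0.288 and 0.242 in the same table). Shh was listed at 0 in WT and stood at 1.37 FPKM in anagen Het cells, and was not called (q = 0.282 in the same table). The anagen groups are shared with the comparison of iKO against Het, and genotype, strain, age, sex, driver and tamoxifen differ here together with the stage. Anagen Het cells were called higher in 8 of 10 tested fibroblast genes and 10 of 14 matrix, shaft and root sheath genes. They were also called higher in 4 of 4 tested endothelial and 9 of 10 cell cycle genes, and lower in 4 of 9 tested bulge genes. The part of these lists in the Hedgehog values was not tested. Whether the stage difference of a gene is larger in iKO than in control cells was not tested.

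Marker lists of other cells are given beside these results, because fewer cells of a type and less RNA per cell cannot be told apart in sorted bulk samples. Fibroblasts and dermal papilla cells also respond to Hedgehog. In anagen the summed level of 11 fibroblast markers was 107 FPKM in Het and 57.2 in iKO cells, with 4 of 10 tested called lower (Col3a1, Col1a1, Col1a2 and Fbn1), in the comparison in which Gli1 and Cdon were lower. In second telogen the sum was 23.6 FPKM in WT, 74.9 in cKO and 13.9 in iKO cells. Of the cKO sum, Col1a1 alone gave 62.9 FPKM, against 10.1 in WT cells, and Mfap5 was listed at 0 in both, as was Twist2 in iKO cells.

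The 11 dermal papilla markers summed to 6.98 FPKM in anagen Het, 5.14 in anagen iKO, 4.38 in second telogen WT, 6.54 in cKO and 16.2 in iKO cells. Only 7 of the 11 were tested in anagen iKO against Het cells and only 2 in second telogen cKO against WT cells. None of those was called (2 and 0 at an unadjusted p below 0.05), and the untested markers could not be called. In second telogen iKO cells Crabp1, a retinoid-binding protein, was called and gave 15.0 of the 16.2 FPKM, while Sox2 was listed at 0, as was Sox18 in cKO cells. The 14 genes of the hair matrix, shaft and root sheath, where Shh-producing cells lie, summed to 313 FPKM in anagen Het and 239 in iKO cells, with 7 called lower, and to 66.3, 83.2 and 73.3 FPKM in second telogen WT, cKO and iKO cells. These 3 groups, with the lowest matrix sums, were those with Shh near 0. First telogen Shh-Het cells, with Shh at 0.667 FPKM, had a sum of 142 FPKM, of which Gata3 gave 62.4. The keratins of the list were low there as well. Krt71, Krt25 and Krt35 were 1.81, 1.43 and 0.684 FPKM, against 59.2, 46.2 and 41.9 FPKM in anagen Het cells. Cell cycle genes were called higher in 10 of 10 cases in anagen iKO and in 9 of 10 in both second telogen cKO and iKO cells against WT. The 4 upper follicle markers summed to 124 FPKM in second telogen WT, 289 in cKO and 293 in iKO cells, the comparisons in which Gli1 was higher. Most of that rise was Krt79, a keratin of the follicle opening. It was called higher in both, at 53.4 FPKM in WT, 227 in cKO and 216 in iKO cells. The other 3 markers did not rise together. In WT, cKO and iKO cells Lrig1 was 29.5, 28.2 and 26.7 FPKM and Lgr6 16.4, 20.8 and 16.8 FPKM. Plet1 was 25.0, 13.1 and 33.7 FPKM and was called lower in cKO cells. The part of any of these lists in the Hedgehog values was not tested.

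**Figure D3:**
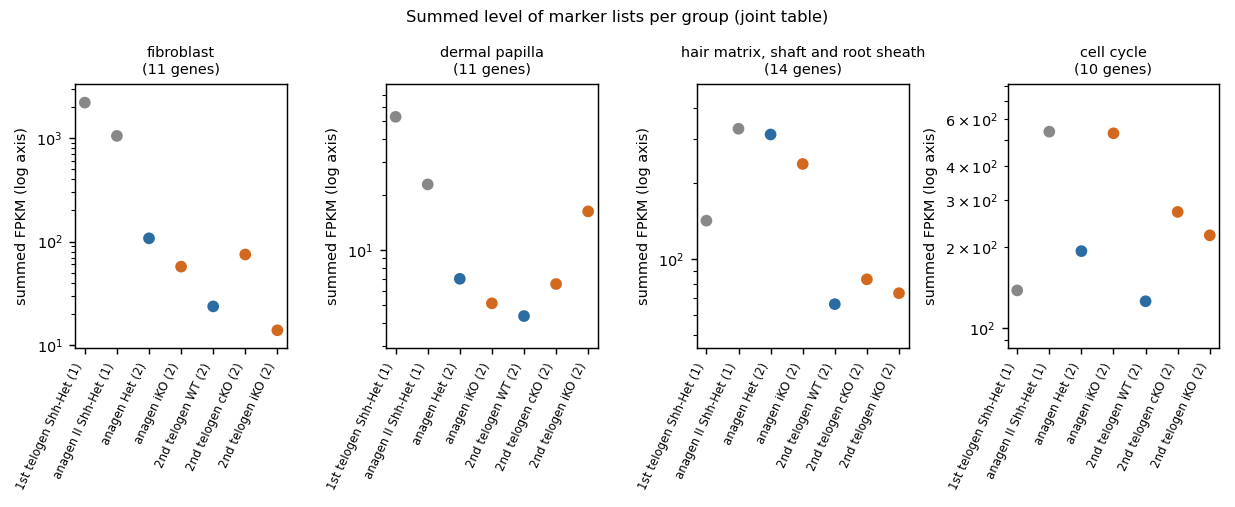
Points give the summed FPKM, on a log axis, of 4 marker lists in each of the 7 groups (colours as for the levels: grey Shh-Het, blue control, orange knockout; libraries in brackets). Fibroblast and dermal papilla sums are highest in both Shh-Het groups, the matrix sum is low in the 3 second telogen groups, and the cell cycle sum is higher in each knockout than in its control.

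The Shh-Het pair shows the entry into anagen in cells heterozygous for Shh, with 1 library on each side and thus no replicate check and no test. From first telogen to anagen II the co-receptors were lower and the ligand higher. With the higher value at 1 FPKM or more, 3 of 9 genes were past 2-fold, beside 30.5% of all such genes (4145 of 13585), so the share was near the background. Shh was 0.667 FPKM in first telogen and 1.69 in anagen II (2.53-fold higher), Boc 67.6 and 23.9 FPKM (2.83-fold lower) and Cdon 36.7 and 7.96 FPKM (4.62-fold lower). Whether reads from the altered Shh allele entered these values was not tested.

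Among the targets in the same pair, Gli1 was 37.8 and 55.7 FPKM (1.47-fold higher), Hhip 0.765 and 1.30 FPKM (1.70-fold higher), and Ptch1 18.6 and 20.3 FPKM (1.09-fold higher). Smo was 38.5 and 65.4 FPKM (1.70-fold higher), Gli3 5.95 and 8.45 FPKM (1.42-fold higher) and Gli2 17.5 and 11.7 FPKM (1.49-fold lower). The median log2 ratio of the 9 genes was 0.38, against -0.12 over all genes at 1 FPKM or more in either library. Between the same libraries the fibroblast sum was 2207 and 1051 FPKM, the dermal papilla sum 52.9 and 22.7, the matrix sum 142 and 330, the cell cycle sum 138 and 539 and the sum of 3 muscle genes 20.0 and 256 FPKM, of which Acta2 gave 254. The immune sum was 300 and 30.0 FPKM and the endothelial sum 48.3 and 7.72 FPKM. The part of any of these lists in these differences was not tested.

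**Figure D4:**
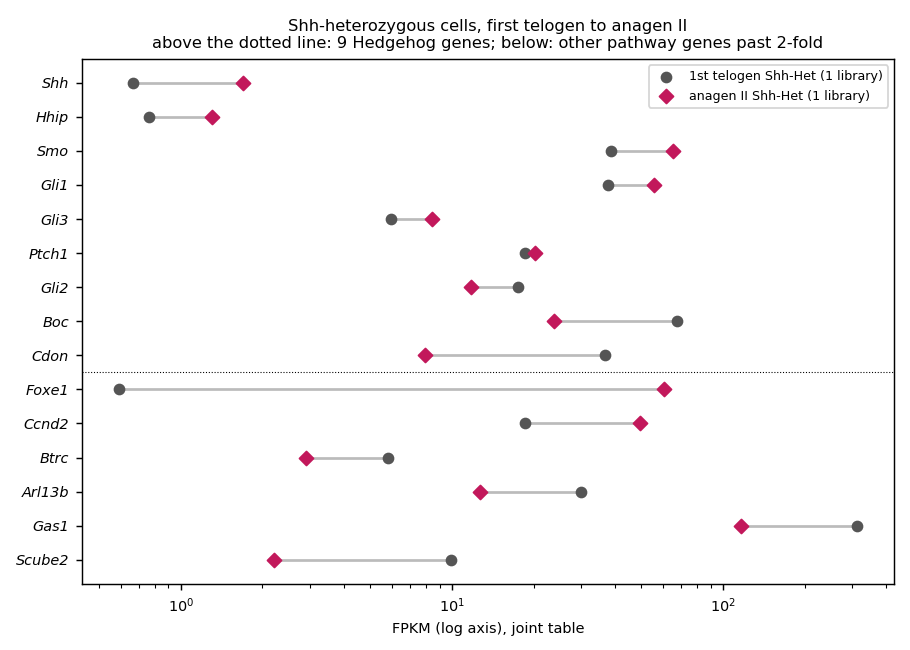
Each line joins the FPKM (log axis) of a gene in the first telogen library (circle) and the anagen II library (diamond) of Shh-Het mice. Above the dotted line are the 9 Hedgehog genes and below it the 6 other pathway genes past 2-fold. Boc and Cdon move to the left, Shh to the right, and Foxe1 moves farthest to the right.

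Ptch1 and Gli1 were higher in the Shh-Het cells than in the control of the nearest phase, while Hhip was not higher in both. Against second telogen WT, first telogen Shh-Het cells were past 2-fold in 2 of 8 genes at 1 FPKM or more. Beside 19.8% of all genes, that share was near the background, and with 1 Shh-Het library no test was made. Ptch1 was 18.6 against 6.35 FPKM (2.93-fold higher) and Gli1 37.8 against 16.7 FPKM (2.26-fold higher). Hhip was 0.765 against 1.44 FPKM there (1.88-fold lower) and 1.30 against 0.700 FPKM in anagen II against anagen Het cells (1.86-fold higher). Against anagen Het, anagen II Shh-Het cells were past 2-fold in 4 of 9, beside 18.6% of all genes. Gli1 was 55.7 against 13.5 FPKM (4.14-fold higher), Ptch1 20.3 against 4.94 FPKM (4.10-fold higher), Gli2 11.7 against 5.41 FPKM (2.17-fold higher) and Cdon 7.96 against 35.3 FPKM (4.44-fold lower). Gli1 and Ptch1 were thus not lower in the Shh-Het libraries, but strain, sex, age, substage and the larger fibroblast and dermal papilla sums all differ with the genotype and cannot be told apart from it. The same holds for the larger immune and endothelial sums of first telogen cells, and for Sox9CreER and tamoxifen in anagen Het mice.

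The rest of the pathway was read from 58 further genes in 5 role lists. In each comparison the share of them that was called, or past 2-fold, was no more than that of all genes given above, so their counts show nothing particular to the pathway. In anagen iKO against Het cells, 3 of 52 tested genes were called, all higher. Ccnd1 and Ccnd2, cyclins of the G1 phase, rose from 59.3 to 105.6 FPKM (1.78-fold) and from 47.2 to 77.2 FPKM (1.64-fold). Dhh, another ligand of the family, rose from 1.52 to 3.18 FPKM (2.10-fold, q = 0.0127 in the authors' deposited table). In second telogen cKO against WT cells, 3 of 48 were called, all higher, and 5 in the joint table. Ccnd1 rose from 30.9 to 78.2 FPKM (2.53-fold), Ccnd2 from 13.3 to 26.6 FPKM (1.99-fold) and Mycn, a growth-promoting transcription factor, from 0.315 to 2.07 FPKM (6.56-fold).

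Of 17 transduction genes, such as Sufu and Kif7, 0 were called in either of those comparisons (2 and 0 at an unadjusted p below 0.05), and of 19 cilium genes 0 were called (0 and 0 at an unadjusted p below 0.05). With 10.3% and 6.62% of all genes called, few calls would fall in lists of this size, so these counts are no result about the lists. Between anagen and second telogen iKO cells, 4 of the transduction genes and 1 of the cilium genes were called, all higher in telogen. The cyclins and Mycn respond to many growth signals. Cell cycle genes were higher in both comparisons and in second telogen iKO against WT cells. Ccnd2 was called higher in each of these. Mycn was not called in anagen iKO cells (1.51 FPKM in Het and 1.59 in iKO over all 7 groups). Ccnd1 was not called in second telogen iKO cells (32.1 FPKM in WT and 34.4 in iKO). Whether the cell cycle has a part in these values was not tested.

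**Figure D5:**
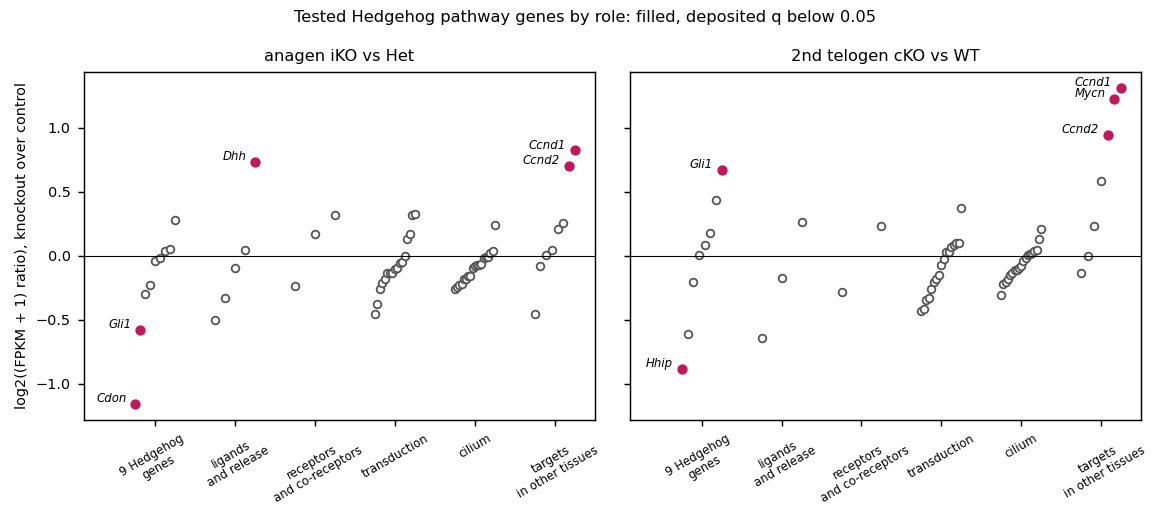
Each point is a tested gene, grouped by role, with its log2 ratio of FPKM + 1 in knockout over control: anagen iKO against Het on the left and second telogen cKO against WT on the right. Filled, named points were called at a deposited q below 0.05. Transduction and cilium genes are all open, and the called genes outside the 9 are all above 0.

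In second telogen iKO against WT cells, 5 of 49 tested genes were higher and 1 was lower. Mycn rose from 0.326 to 1.20 FPKM (3.66-fold), Gpc3, a glypican that binds the ligand, from 1.34 to 2.79 FPKM (2.08-fold), Ccnd2 from 13.9 to 23.2 FPKM (1.68-fold) and Arl13b, a GTPase of the cilium, from 29.2 to 43.2 FPKM (1.48-fold). Mycn and Ccnd2 were thus higher than in WT in both telogen knockouts, with the WT libraries shared. Between iKO and cKO cells, 2 of 49 were higher in iKO, Arl13b (23.4 and 43.2 FPKM) and the kinase Ulk3 (10.4 and 16.8 FPKM), and 3 were lower, among them Ccnd1 (81.4 and 34.4 FPKM) and Cdk6 (4.78 and 2.50 FPKM).

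By stage, 12 of 50 genes were called between the iKO groups, 6 in each direction. Dhh was 6.15-fold lower and Ccnd2 and Ccnd1 were 3.14-fold and 2.89-fold lower in second telogen, while Scube2, a secreted protein that helps release the ligand, was 3.30-fold higher. Between the controls, 7 of 50 were higher in anagen Het and 4 lower. Foxe1, a forkhead factor of the follicle, was listed at 0 in second telogen WT and stood at 4.71 FPKM in anagen Het cells, Gpc3 was 1.34 and 3.76 FPKM (2.81-fold higher in anagen), Ccnd2 13.9 and 44.5 FPKM (3.21-fold higher) and Scube2 19.8 and 6.15 FPKM (3.21-fold lower). Foxe1 was thus higher in the growing cells, while Ptch1 was not called there.

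In the unreplicated Shh-Het pair, 6 of 48 further genes were past 2-fold. Foxe1 was 0.590 FPKM in first telogen and 60.6 in anagen II (103-fold higher) and Ccnd2 18.6 and 49.5 FPKM (2.66-fold higher). The co-receptor Gas1, at 313 and 117 FPKM (2.68-fold lower), went the same way as Boc and Cdon. Scube2 was 4.52-fold, Arl13b 2.37-fold and Btrc, a ubiquitin ligase subunit that acts on Gli proteins, 2.00-fold lower.

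The profiles of the members over the 7 group values were compared as a description. All 7 points share their libraries and their joint scaling, and 2 of them are the Shh-Het libraries. Of all pairs of members, Gli1 and Ptch1 were the most alike, with a Pearson r of 0.95 on log2(FPKM + 1), followed by Gli1 and Gli2 (0.82) and Ptch1 and Gli2 (0.81). Hhip stood apart from both other targets, with r = 0.43 to Ptch1 and 0.38 to Gli1. Shh and Boc ran against each other (r = -0.93), and Shh had r = 0.04 to Ptch1 and -0.13 to Gli1.

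Among 10971 other genes, those most like Gli1 were Rcn2 (r = 0.99), 2310022B05Rik, Mbd6, Srebf1 and Arhgap33 (r = 0.96), and 42 genes reached 0.9. Those most like Ptch1 were Usp21, Spata2, Tulp3, Rcn2 and Ccdc97, of which Tulp3, a protein of the cilium, is in the pathway lists. Those most like Hhip were Fam26e, Ube2o, Edc4, Nrip1 and Ube4b, with 11 genes at 0.9 or more. For Shh, whose profile is mainly its absence in second telogen, 346 genes reached 0.9, led by Sephs1, Fam198b, Medag, Dcun1d4 and Jdp2. With 0.1 in place of 1 FPKM added, 271 genes reached 0.9 and 2 of these 5, Fam198b and Jdp2, were still among the first 5, so the list for Shh depends on that choice.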

How the data were processed

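Hair follicle stem cells were purified by flow cytometry, lysed in Trizol and prepared with the TruSeq mRNA kit, per the labels' protocols. Reads were processed with TopHat, Cufflinks and Cuffdiff on build mm9, per the submitters' processing notes, which give no version. The authors deposited FPKM in 3 tables that pool the libraries of a group, so no count, depth or value per library was used. The log2 fold, the test statistic (a score signed like the fold) and the p-value and q-value of each comparison are the authors' own, per the file headers. The smallest deposited p-value is 5e-05. In both 2-group tables the q-value was within 5.25e-07 of a Benjamini-Hochberg adjustment computed here. The joint table was scaled separately, so levels were compared only within a table. The labels call each replicated library a mouse, and p-values rest on 2 libraries per group.

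Anagen iKO against Het and second telogen cKO against WT were taken from the 2-group tables, and the other comparisons and all levels over 7 groups from the joint table. A standard error was computed as the log2 fold over the deposited statistic, which is approximate. The difference of both knockout effects was tested as a two-sided z value with Benjamini-Hochberg adjustment (scipy 1.17.1, numpy 2.4.6, pandas 2.3.3), run also on simulated data. The simulated noise was drawn with the same standard errors that the test used. It could therefore not show whether those standard errors hold with 2 libraries per group. Pairs with a 1-library group have no test, and the threshold there is 2-fold with the higher value at 1 FPKM or more.

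The members, gene lists and tests were chosen with earlier results of these data known. Named are all 9 members, Foxc1, up to 4 called genes of the other pathway lists per comparison by lowest p, the 5 genes most like Gli1, Ptch1, Hhip and Shh among those with 5 FPKM or more in a group, and the called genes of the marker lists that are described. Genes named for the unreplicated pair, and 9530036O11Rik, were chosen after their values were seen. The alternatives tried were the joint table, other q thresholds, pseudocounts, a filter on low values, centring and another fold threshold. Promoter sequences are RefSeq's, for build GRCm38.p6, and no coordinate was converted between builds. A gene of the receptor list is not reported here and was left out of the counts.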

Additional observations from a re-analysis of the deposited data

How the results depend on the processing

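No paired analysis was possible because each group has 1 pooled value, and for the same reason no replicate could be left out. Under the alternatives, 53 summary values moved little (counts within 1.5 times) and 9 moved more. Of the results on single genes and on the likeness lists, 125 held, 5 passed only under the alternative, 6 were lost, 1 moved (2 of the first 5 genes most like Shh stayed with a pseudocount of 0.1) and 0 reversed. That pseudocount was chosen after seeing the data for the Ptch1, Hhip and Shh lists. The 125 include genes not called at q below 0.05, which could not become called at q below 0.01, so that threshold was no check of them. Likewise, genes called at q below 0.05 could not be lost at q below 0.1, so that threshold was no check of those. All 6 losses were at q below 0.01. At q below 0.01, 1 of the Hedgehog genes was called in anagen iKO against Het (Cdon), 1 in second telogen cKO against WT (Hhip) and 0 in second telogen iKO against WT, where 2 other pathway genes were called. For second telogen cKO against WT, the joint table called 5 other pathway genes. At q below 0.1, 2 were called between second telogen iKO and cKO. The median of the Hedgehog genes was 1.01 with a pseudocount of 0.1 between the iKO groups of both stages, and 0.14 with a pseudocount of 5 in anagen II Shh-Het against anagen Het. At 1.5-fold, 5 Hedgehog genes passed in the Shh-Het pair. The adjusted p of the Gli1 difference between stages was 0.0966 from the joint table and 0.253 with the larger standard errors. The low pooled values of Shh and Hhip have no known depth behind them. Another choice of row could not be tried, since each member has 1.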
